A study of Homo sapiens with 6 samples.

Results

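The vascular endothelial growth factor (VEGF) genes were examined in RNA-seq counts with and without LINC00115 knockdown (KD). Per the labels and the study, the libraries are of paclitaxel-resistant (PTX-resistant) MDA-MB-231 breast cancer stem-like cells (BCSC). The members were the genes of the count table named Vegfa, Vegfb, Vegfc, Pgf, Flt1, Kdr, Flt4, Nrp1 and Nrp2, and all 9 were found among its 22989 genes. MDA-MB-231 cells come from a human breast tumour of the triple-negative type, and the study sorted their BCSC by high aldehyde dehydrogenase activity. The 3 KD libraries carry the genotype label LINC00115 knockdown, made with a short hairpin RNA, and the 3 control libraries carry the label WT, where the study writes of a control hairpin. Both groups are PTX-resistant. The labels do not say whether libraries of a group came from separate cultures, so the p-values measure the spread between these libraries, which may be technical.

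The libraries held between 36979221 and 38799331 counts. Although the labels give a human cell line, the gene symbols are written in mouse style, with 4650 Gm names and 1135 Rik names, and 0 genes are named LINC00115, so the knockdown could not be checked in these counts and every direction rests on the labels. Symbols are given here as the table writes them. Of the aldehyde dehydrogenase genes only Aldh1a1 and Aldh1a3 were examined, and they had 8 to 52 and 0 to 4 counts in each library. Epcam had 0 to 5 counts, and Vim, Cd44, Krt8 and Krt18 never had fewer than 4856 counts. Of 18 breast cancer and epithelial identity genes 12 were tested. At the thresholds given below Cdh1, Esr1 and Aldh1a1 were called higher and Krt14 lower, beside 10.2% and 9.98% of all genes tested. Cdh1 and Aldh1a1 passed the filter on low counts only through the KD libraries. At an adjusted p-value under 0.05 alone, 8 were higher and 3 lower, beside 36.7% of all genes tested each way. The Krt14 call was lost in 5 of 12 alternatives (DESeq2's Wald test, the replicate block and the fits without control replicate 3, KD replicate 2 or KD replicate 3), and over the 12 its log2 fold change ranged from −2.09 to 0.488 and so turned its sign. Control replicate 3 held 192 counts of Krt14 against 7 to 31 in the other libraries, and 92 counts of Krt5 against 0 in each other library.

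VEGF-A, VEGF-B, VEGF-C and placental growth factor (PlGF, from Pgf) are secreted dimers that bind receptor tyrosine kinases, mainly of endothelial cells. VEGF-A binds VEGFR1 (Flt1) and VEGFR2 (Kdr), VEGF-B and PlGF bind VEGFR1, and VEGF-C binds VEGFR3 (Flt4) and VEGFR2. The neuropilins Nrp1 and Nrp2 are co-receptors that also bind class 3 semaphorins. Tumour cells are a well-known source of VEGF-A, whose transcription hypoxia-inducible factors raise under low oxygen.

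In the KD libraries, the ligands Vegfa and Pgf fell to 0.298 and 0.335 of the control level. Vegfb and the receptor Flt1 fell less, to 0.724 and 0.676. Vegfc and the co-receptor Nrp1 rose, to 1.32 and 1.28 of the control level, while Nrp2 did not pass the test. Kdr and Flt4 were counted at most 10 times in any library. Levels are given as normalized CPM (counts scaled to a common library total with edgeR's TMM factors), and changes as log2 fold changes of KD over control with their standard errors (SE). The p-values come from edgeR's quasi-likelihood test and are adjusted over 13497 genes tested.

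Of the 7 members that passed the filter on low counts, 4 were lower and 2 higher at an adjusted p-value under 0.05. Such a result was common in these libraries, with 36.7% of all genes tested lower and 36.7% higher. With a fold change over 2 as a further threshold, 2 members were called lower and 0 higher, against 9.98% and 10.2% of all genes tested. Without overlap between the groups were the same 6 members and Kdr, and among all genes tested 37.8% lay higher and 37.8% lower in all KD libraries than in any control library. Replicates differed by a biological coefficient of variation of 5.21%.

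**Figure D1:**
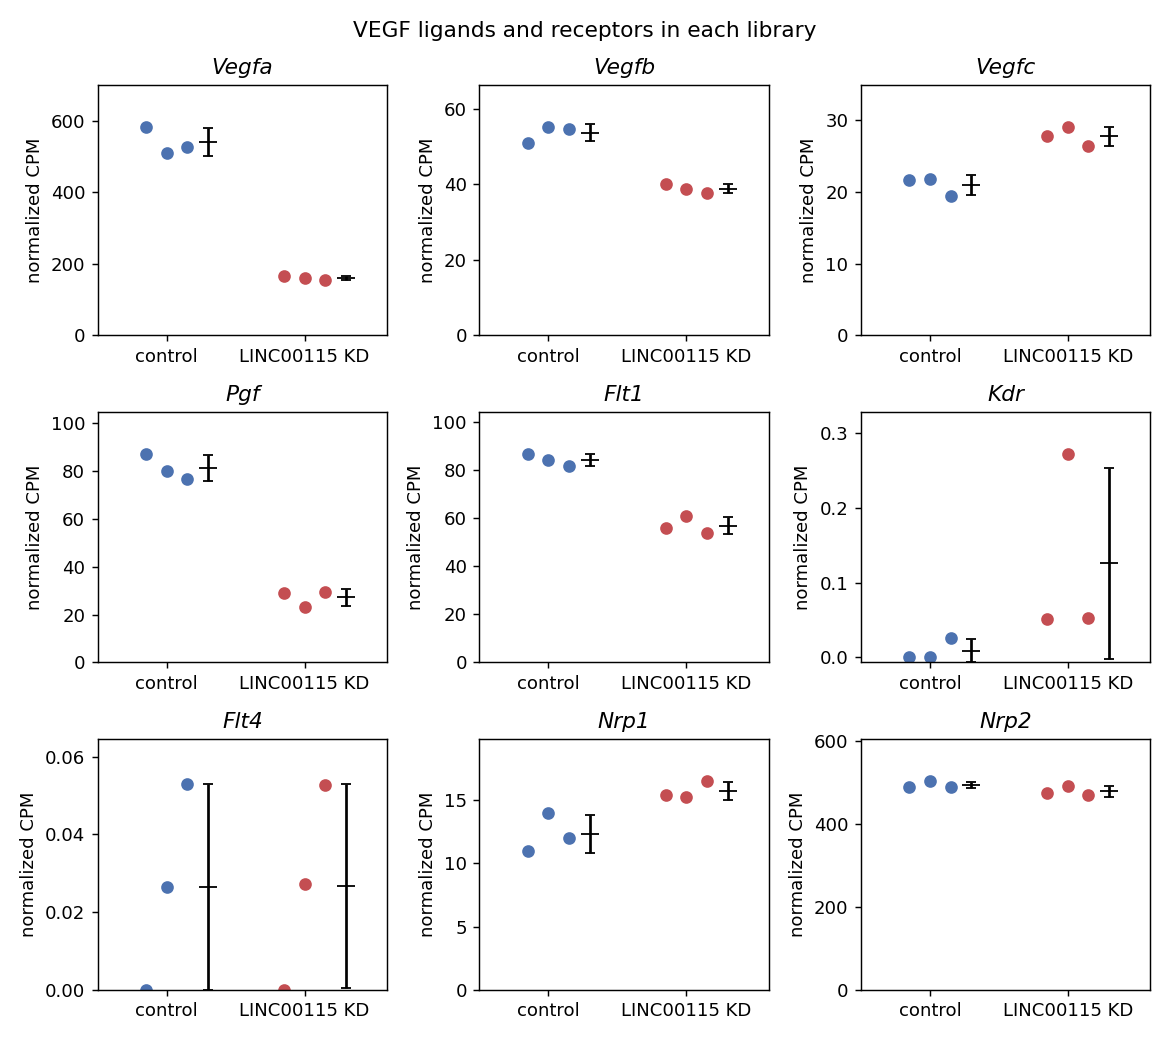
Normalized CPM of the 9 VEGF genes, with 1 point for each of the 3 control (blue) and 3 KD (red) libraries and black bars for the mean ± SD (each panel has its own vertical axis). Vegfa and Pgf lie far lower in the KD libraries, Nrp2 overlaps between the groups, and Kdr and Flt4 stay below 0.3 CPM.

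Vegfa, the main angiogenic ligand of the family, had 584, 510.5 and 526 normalized CPM in the control libraries and 167, 162 and 155 in the KD libraries. All KD values lay below the lowest control value. The mean fell from 540.2 ± 38.8 to 161 ± 6.24 (SD, n = 3 libraries each). The log2 fold change was −1.75 (SE 0.04, edgeR adjusted p = 1.93e-28). Of the genes tested, 9.17% had a larger change in either direction. In the order of mean levels over the whole table Vegfa went from place 226 in the control libraries to place 1457 in the KD libraries.

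Pgf, which encodes a ligand of VEGFR1, had 87.2, 79.9 and 76.8 normalized CPM in the control libraries and 29.0, 23.2 and 29.5 in the KD libraries. The groups did not overlap, and KD replicate 2 was the lowest library. The mean went from 81.3 ± 5.34 to 27.2 ± 3.51 (SD, n = 3 each). The log2 fold change was −1.58 (SE 0.07, edgeR adjusted p = 9.30e-21).

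Vegfb, a VEGFR1 ligand with a weak angiogenic effect in most tissues, had 51.0, 55.2 and 54.7 normalized CPM in the control libraries and 40.0, 38.8 and 37.7 in the KD libraries. The groups were apart, with a log2 fold change of −0.47 (SE 0.06, edgeR adjusted p = 7.78e-09). This fall of 27.6% did not reach a fold change of 2, and 49.0% of the genes tested changed more.

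Vegfc, the ligand known for lymphatic vessel growth, was the only one of the 4 member ligands that rose. It had 21.7, 21.8 and 19.4 normalized CPM in the control libraries and 27.8, 29.1 and 26.4 in the KD libraries. Every KD value exceeded every control value, and the log2 fold change was 0.41 (SE 0.08, edgeR adjusted p = 1.62e-05). Vegfd, a further VEGFR3 ligand outside the member list, had 173, 263 and 174 counts in the control and 182, 188 and 177 in the KD libraries, which overlapped (log2 fold change −0.16, edgeR adjusted p = 0.426).

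**Figure D2:**
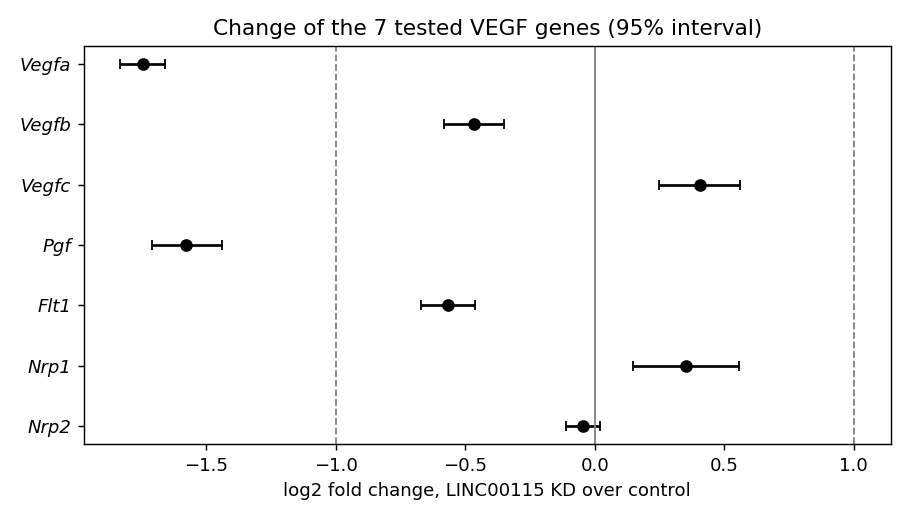
Log2 fold change of KD over control for the 7 tested VEGF genes, with 95% intervals from edgeR's quasi-likelihood fit and dashed lines at a fold change of 2. The intervals of Vegfa (−1.83 to −1.66) and Pgf (−1.71 to −1.44) lie beyond the line, and that of Nrp2 (−0.112 to 0.0187) crosses 0.

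The counts of 2 genes in 1 library share its depth, so their ratio does not depend on scaling. Vegfa counts were 11.4, 9.24 and 9.62 times those of Vegfb in the control libraries and 4.18, 4.17 and 4.10 times in the KD libraries. Against Vegfc, the ratio went from 26.9, 23.4 and 27.1 to 6.02, 5.56 and 5.86. Both ratios were lower in every KD library, by 2.44 and 4.45 times in the mean. Against Pgf, it was 6.70, 6.39 and 6.85 in the control and 5.76, 6.98 and 5.25 in the KD libraries, which overlapped. These ratios are given without a test.

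**Figure D3:**
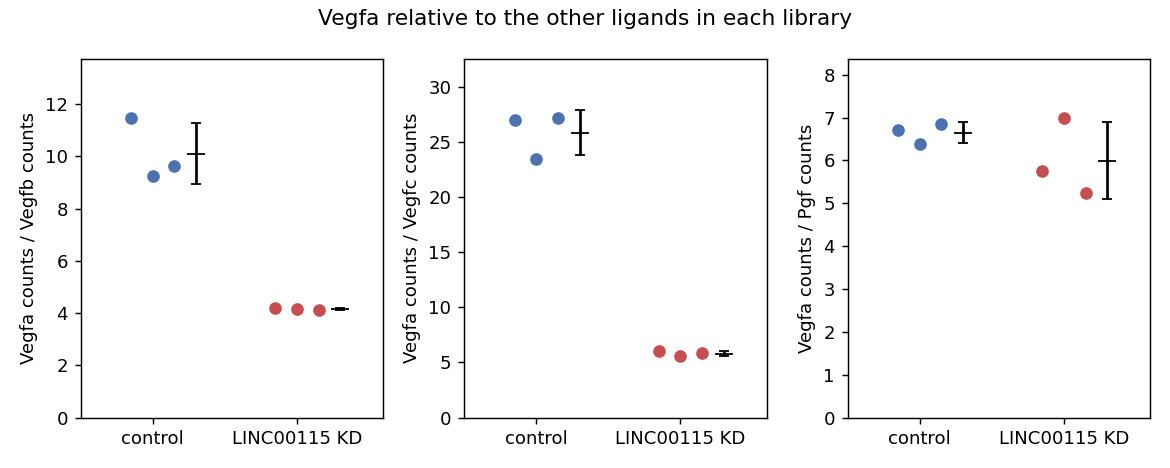
Counts of Vegfa divided by those of Vegfb, Vegfc and Pgf in each control (blue) and KD (red) library, with black bars for the mean ± SD. The ratio to Vegfb fell from a mean of 10.1 to 4.15 and the ratio to Vegfc from 25.8 to 5.81, while the ratio to Pgf overlapped between the groups.

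The promoters of the human genes of the same name are shown for Pgf and Flt1, which fell, and for Vegfc, which rose. Of the 22989 gene symbols of the counts, only 16 equal a human symbol as written. These sequences may therefore not be the promoters of the counted genes, and no link to the changes can be drawn from them. The sequences are those of RefSeq on GRCh38.p14, 250 bases before a transcription start, which entries for 6 members gave (VEGFB, VEGFC, PGF, FLT1, KDR and NRP2; no sequence is shown for VEGFA, FLT4 and NRP1). Capitals mark the hypoxia response core GCGTG or its reverse complement CACGC, which the PGF window lacks. PGF is on the minus strand (chr14:74955765-74956014, the upstream of 2 listed starts), as are FLT1 (chr13:28495129-28495378) and VEGFC (chr4:176792923-176793172).
PGF: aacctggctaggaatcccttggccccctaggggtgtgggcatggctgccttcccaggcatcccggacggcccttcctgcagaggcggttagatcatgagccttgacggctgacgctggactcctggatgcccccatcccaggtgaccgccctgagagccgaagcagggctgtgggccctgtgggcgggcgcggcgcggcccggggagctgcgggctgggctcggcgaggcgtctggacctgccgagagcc
FLT1: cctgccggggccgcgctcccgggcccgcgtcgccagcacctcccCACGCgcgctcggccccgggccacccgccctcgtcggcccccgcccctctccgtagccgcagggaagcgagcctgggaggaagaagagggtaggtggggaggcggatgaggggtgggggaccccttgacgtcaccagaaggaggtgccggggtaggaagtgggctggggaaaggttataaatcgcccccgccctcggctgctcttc
VEGFC: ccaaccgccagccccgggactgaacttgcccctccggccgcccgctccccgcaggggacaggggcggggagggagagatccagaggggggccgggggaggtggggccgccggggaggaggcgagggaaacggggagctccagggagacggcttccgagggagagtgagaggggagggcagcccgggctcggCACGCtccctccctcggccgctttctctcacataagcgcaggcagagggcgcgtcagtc

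Both forms of the core motif, ACGTG and GCGTG, were searched on both strands. GCGTG occurred once each in the windows of FLT1, VEGFB, VEGFC and the downstream start of PGF, and not in the windows of KDR, NRP2 and the upstream start of PGF. ACGTG occurred in none of these windows. Of 35116 promoter windows of this length, 32.2% held GCGTG and 18.5% held ACGTG. The motif stood before human genes named like members that fell and before VEGFC, named like Vegfc, which rose. These letters alone do not mark a functional site, and mouse promoters were not searched.

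Flt1, which encodes VEGFR1 and also a soluble form that traps ligand, had 86.7, 84.0 and 81.8 normalized CPM in the control libraries and 55.9, 60.9 and 53.8 in the KD libraries. The groups did not overlap. The log2 fold change was −0.57 (SE 0.05, edgeR adjusted p = 6.54e-12), and counts per gene do not tell the membrane and soluble forms apart. Relative to Flt1, Vegfa counts went from 6.42 ± 0.330 to 2.84 ± 0.170 times (SD, n = 3 each).

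Nrp1, the co-receptor of VEGF-A and of semaphorin 3A, had 10.99, 14.0 and 12.0 normalized CPM in the control libraries and 15.4, 15.2 and 16.5 in the KD libraries. The highest control library came close to the lowest KD library without reaching it. The log2 fold change was 0.35 (SE 0.10, edgeR adjusted p = 0.00238), the highest adjusted p of the 6 members that passed.

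Nrp2, the co-receptor of VEGF-C and of semaphorin 3F, had 490.4, 504 and 489 normalized CPM in the control libraries and 474, 492.5 and 469 in the KD libraries. The groups overlapped. The log2 fold change was −0.047 with a 95% interval from −0.112 to 0.0187 (edgeR adjusted p = 0.191), so that a change within this interval remains possible. With upper quartile scaling, under which the median of all genes was −0.047 against −0.0061 in the TMM fit, it was −0.088 and passed (edgeR adjusted p = 0.0127). The ratio of Nrp2 to Nrp1 counts went from 40.4 ± 4.35 to 30.5 ± 1.99 (SD, n = 3 each).

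Kdr, which encodes VEGFR2, had 0, 0 and 1 counts in the control libraries and 2, 10 and 2 in the KD libraries. KD replicate 2 held most of these counts. Summed over the libraries, 14 counts against 1 gave a ratio of 13.8 with an exact 95% interval from 2.10 to 583, and without KD replicate 2 the ratio was 5.83 with an interval from 0.577 to 287. These intervals cover counting error only. Without the filter on low counts Kdr did not pass the test (edgeR adjusted p = 0.086).

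Flt4, which encodes VEGFR3, had 0, 1 and 2 counts in the control and 0, 1 and 2 in the KD libraries. A difference was not detectable at this depth: 3 counts in each group are 0.0267 CPM in the control (exact 95% interval 0.0055 to 0.078) and 0.0263 in the KD libraries (0.00542 to 0.0768).

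Per length, the levels could be set in order only approximately, because transcript lengths were those of the canonical human transcripts in GENCODE on GRCh37, while the table has mouse-style names. On this scale of normalized CPM per kb, the control libraries had 150.0 ± 10.7 for Vegfa, 74.4 ± 1.24 for Nrp2, 46.7 ± 3.07 for Pgf, 29.7 ± 1.27 for Vegfb, 11.8 ± 0.344 for Flt1, 9.26 ± 0.595 for Vegfc and 2.19 ± 0.273 for Nrp1 (SD, n = 3). Among these members no neighbours in the order were within their SDs of each other. The SDs cover the spread between libraries only and not the error of the human lengths, so they do not settle the order. In the KD libraries Nrp2 came first with 72 ± 1.84, before Vegfa with 44.7 ± 1.73 and Vegfb with 21.5 ± 0.620. Pgf (15.6 ± 2.02) and Vegfc (12.3 ± 0.593) followed, and then Flt1 (7.98 ± 0.515) and Nrp1 (2.79 ± 0.125).

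Since VEGF receptors are best known from endothelial cells, markers of these and other cells were counted beside them. In bulk libraries fewer cells of a type and less RNA per cell cannot be told apart. Among 19 endothelial markers that the files held, 8 lay higher and 4 lower in all KD libraries than in any control library, beside 37.8% each way of all genes tested. Their summed level was 102 to 112 normalized CPM in the control and 212 to 225 in the KD libraries. Most of this sum came from Eng (82.5 and 140.5 mean normalized CPM) and Cdh5, the gene of VE-cadherin, with 14, 5 and 6 counts in the control and 2175, 2136 and 2243 in the KD libraries (log2 fold change 8.01, edgeR adjusted p = 4.86e-32). Ecscr, with 481, 514 and 407 counts in the control and 276, 271 and 270 in the KD libraries, and Egfl7, with 296, 364 and 383 against 302, 265 and 244, fell by 0.78 and 0.37 on the log2 scale (edgeR adjusted p = 4.64e-07 and 0.0144). Several defining markers were nearly absent, with 0 to 2 counts of Tek, 0 to 1 of Emcn and 6 to 19 of Pecam1 in each library, and Cldn5, Robo4, Mmrn2 and Clec14a were at 0 in every control library. Of the 10 tested, 3 were called higher (Cdh5, Esam and Rasip1) and 2 lower (Tie1 and Plvap), beside 10.2% and 9.98% of all genes tested. The 3 called higher passed the filter on low counts only through the KD libraries, and Tie1 only through the control libraries. Leaving out any 1 library made the number called lower 1 or, without KD replicate 3, 0. The call of Esam was lost without control replicate 1 and without KD replicate 3, and under a filter of 10 counts in each sample 0 of the list were called higher.

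Of 6 lymphatic endothelial markers 2 were tested and both were called higher, beside 10.2% of all genes tested. Both passed the filter on low counts only through the KD libraries, so that they could only come out higher. Lyve1 went from 0, 1 and 0 counts to 80, 75 and 62, Pdpn from 0, 2 and 4 to 26, 17 and 13, and Prox1, which specifies these cells, was at 0 in all 6 libraries. The list summed to 0 to 0.106 normalized CPM in the control and 2.03 to 2.84 in the KD libraries.

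Markers of other tissues also differed between the groups. Of those tested, 11 of 12 lung and 6 of 9 kidney markers were called higher, beside 10.2% of all genes tested. Markers at or near 0 in every control library passed the filter on low counts only through the KD libraries. These could only come out higher. Among all genes tested, 37.8% lay higher and 37.8% lower in all KD libraries than in any control library. Of 14 lung epithelial markers 13 were higher in every KD library, with sums of 38.9 to 43.7 normalized CPM in the control and 119.8 to 136 in the KD libraries, and Scgb1a1, Sftpc, Sftpa1, Sftpb, Sftpd and Slc34a2 were at 0 in every control library. Scgb1a1 had 1516, 1586 and 1843 counts in the KD libraries. Of 13 kidney epithelial markers 9 were higher and 1 lower, with sums of 16.8 to 19.6 and 45.1 to 48.6 normalized CPM. Kap, Umod, Acsm2 and Slc22a6 were at 0 in every control library, and Slc34a1 and Lrp2 were called higher too.

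Of 13 leukocyte markers 4 were higher (S100a8, S100a9, Lyz2 and Cd74) and 1 was lower in all KD libraries than in any control library. Over all genes tested, 37.8% lay apart in this way in each direction. The sums were 35.0 to 35.9 normalized CPM in the control and 99.8 to 111 in the KD libraries. S100a8 made up most of them, and Cd3e was at 0 in every library. Of 10 pericyte and smooth muscle markers 3 were higher, among them Acta2, and 2 lower, with sums of 2.44 to 2.76 and 2.79 to 3.58 normalized CPM. None of these counts of markers lying apart exceeded the share over all genes. Of those tested, 4 of 5 leukocyte and 1 of 4 pericyte and smooth muscle markers were called higher, beside 10.2% of all genes tested. Among them, S100a9 and Acta2 passed the filter on low counts only through the KD libraries, which favours a higher call. The part of such cells in the levels of the VEGF genes was not tested.

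Further genes that act with VEGF were described by 5 lists. Of all genes tested, 36.7% were lower and 36.7% higher, 9.98% were called lower and 10.2% higher, and the median log2 fold change was −0.0061, so that counts near these shares are no result about a list. Counts of lower and higher genes use an adjusted p-value under 0.05, and genes are called where the fold change is also over 2.

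Of 20 tested regulators of VEGF genes 11 were lower and 9 higher, with a median log2 fold change of −0.14, and 3 were called lower and 1 higher. Egln1, the main prolyl hydroxylase that marks HIF1α for degradation, had 11819, 11544 and 11340 counts in the control and 5034, 4451 and 5089 in the KD libraries (log2 fold change −1.25, edgeR adjusted p = 6.21e-25). Vhl, which recognises hydroxylated HIF1α, and the transcription factor Foxo3 were called lower too (−1.04 and −1.24). Hif1a mRNA rose by a log2 fold change of 0.40, Atf4, a stress-induced transcription factor that can raise Vegfa, by 0.92, and Arnt, the partner of Hif1a, fell by 0.21 on the log2 scale. Epas1, the gene of HIF2α, had 0, 0 and 3 counts in the control and 85, 57 and 74 in the KD libraries, too few in the control for a fold. It was the 1 regulator called higher and passed the filter on low counts only through the KD libraries, so that it could only come out higher. With at least 10 counts in every sample 0 regulators were called higher.

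Of 18 tested genes that process, bind or release VEGF 5 were lower and 11 higher (median 0.21), with 1 called lower and 3 higher. Ccn2, which encodes a matrix protein that binds VEGF-A, had 228, 233 and 255 counts in the control and 8294, 7499 and 8139 in the KD libraries (log2 fold change 5.06, edgeR adjusted p = 1.58e-37). Mmp9, a gelatinase that can free VEGF-A from the matrix, had 5630, 5550 and 5645 counts in the control and 977, 976 and 915 in the KD libraries (−2.55). Thbs2 and Mmp2 were called higher on at most 43 counts in a library. Both passed the filter on low counts only through the KD libraries, which favours a higher call. With at least 10 counts in every sample 1 gene of the list was called higher. The call of Mmp2 was lost under 8 of 12 alternatives, among them each fit without control replicate 1 or 2 or any 1 of the KD libraries. Mmp2 had 0, 1 and 23 counts in the control and 22, 29 and 20 in the KD libraries. Beside Vegfc, Ccbe1, which is needed for VEGF-C maturation, rose (log2 fold change 0.48), and the protease gene Adamts3 had 0 counts in 5 libraries and 1 in the other. Hspg2, the heparan sulfate proteoglycan perlecan, fell by 0.70 on the log2 scale, and Thbs1, an inhibitor of angiogenesis, rose by 0.95.

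Class 3 semaphorins and plexins, which share the neuropilins with VEGF, had 9 of 13 tested genes lower and 3 higher (median −0.39), with 2 called in each direction. Sema3c rose from 1608, 1858 and 1736 counts to 5063, 4989 and 4866 (log2 fold change 1.52). Sema3f, a ligand of Nrp2, fell by 0.52 and Sema3a, a ligand of Nrp1, by 0.44 on the log2 scale. Among the receptors Plxna4 and Plxnb1 were called lower (−2.93 and −1.11), and Plxna2 was called higher on 14, 19 and 38 counts against 2, 3 and 1. Plxna2 passed the filter on low counts only through the KD libraries, so that it could only come out higher. With at least 10 counts in every sample 1 gene of the list was called higher. Plxna1 rose by 0.54, while Plxna3 and Plxnd1 fell by 0.94 and 0.57 on the log2 scale.

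Of 15 other angiogenic growth factor and receptor genes tested 6 were lower and 5 higher (median −0.16), and 5 were called lower and 1 higher. Apln, the gene of the vessel peptide apelin, had 8544, 7958 and 7860 counts in the control and 1405, 1361 and 1382 in the KD libraries (log2 fold change −2.56, edgeR adjusted p = 4.86e-32). Adm, the gene of the vasodilator adrenomedullin, went from 3864, 3363 and 3537 to 1153, 1014 and 995 counts (−1.77), and Pdgfra from 6585, 7115 and 6393 to 2902, 2774 and 2770 (−1.25). Angpt1, a ligand of the receptor Tek, rose from 324, 544 and 481 to 1411, 1613 and 1365 counts (1.70). Tie1 and Aplnr were also called lower, on at most 24 counts in a library. Both passed the filter on low counts only through the control libraries, which favours a lower call. Under a filter of 10 counts in each sample and without control replicate 1, control replicate 3 or KD replicate 1 the number called lower was 3 in place of 5.

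Downstream of the receptors, 13 of 45 tested signalling genes were lower and 21 higher (median 0.053), with 1 called lower and 5 higher. Sphk1, a sphingosine kinase, rose from 65, 42 and 74 to 659, 535 and 722 counts (log2 fold change 3.40), and Hspb1, a small heat shock protein phosphorylated downstream of p38, from 608, 625 and 700 to 1732, 1824 and 1788 (1.47). The phospholipase genes went opposite ways, with Plcg2 called higher (1.11) and Plcg1, the one coupled to VEGFR2, lower by 0.59 on the log2 scale. Src, a kinase that acts below VEGFR2, rose by 0.95, and Mapk3, the gene of ERK1, fell by 0.74 on the log2 scale. Nfatc2 was called higher (1.70), and Pik3cb too (1.03), though it changed less than 2-fold with upper quartile scaling, without control replicate 2 and without KD replicate 3. Pik3cd was called lower at −1.002, which lost the call with the size factors of DESeq2, with its Wald test and without control replicate 3, KD replicate 2 or KD replicate 3, when 0 genes of the list were called lower.

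**Figure D4:**
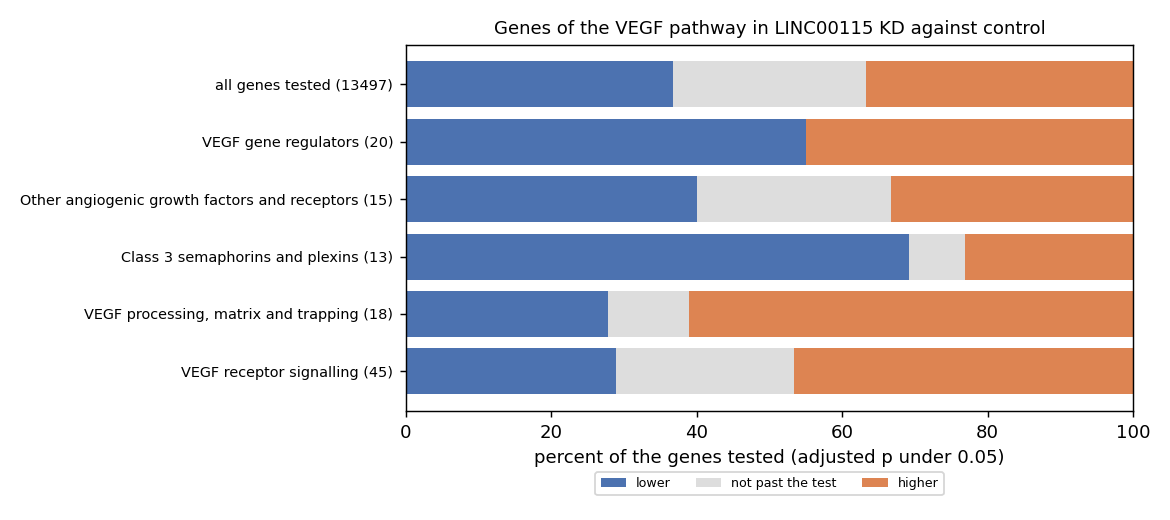
Percent of the tested genes of each list, and of all 13497 genes tested, that were lower (blue), higher (orange) or not past an adjusted p-value of 0.05 (grey) in KD against control, with the number of genes tested in parentheses. Of the semaphorins and plexins 9 of 13 were lower, and of the processing and matrix genes 11 of 18 were higher.

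The genes with profiles most like those of the members were found by the root mean square difference of centred log2 normalized CPM over the 6 libraries, among 10835 genes with at least 100 counts in all libraries of a group. Nearest to Vegfa were Adm (difference 0.0246 on the log2 scale), Gm30233 (0.0384) and P4ha2 (0.0418), with log2 fold changes of −1.77, −1.88 and −1.70. Adm encodes adrenomedullin, P4ha2 a collagen prolyl hydroxylase, and Gm30233 has no functional name. Nearest to Pgf were Gm33257, Adgrg3 and Pdk3, at wider differences of 0.0406 to 0.056.

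For the members with smaller changes the nearest genes lay mostly closer. They were Stub1, Sem1 and Fabp5 for Vegfb (0.0198 to 0.0228), Rxra, Atp11a and Kmt2c for Vegfc (0.0225 to 0.0252), and R3hdm4, Acad11 and Acadvl for Flt1 (0.0264 to 0.0273). Nrp1 had Btg3, Dbt and Isyna1 (0.0403 to 0.0472), and Nrp2 had Rlim, Prpf4b and Hnrnpul1 (0.00677 to 0.0136).

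**Figure D5:**
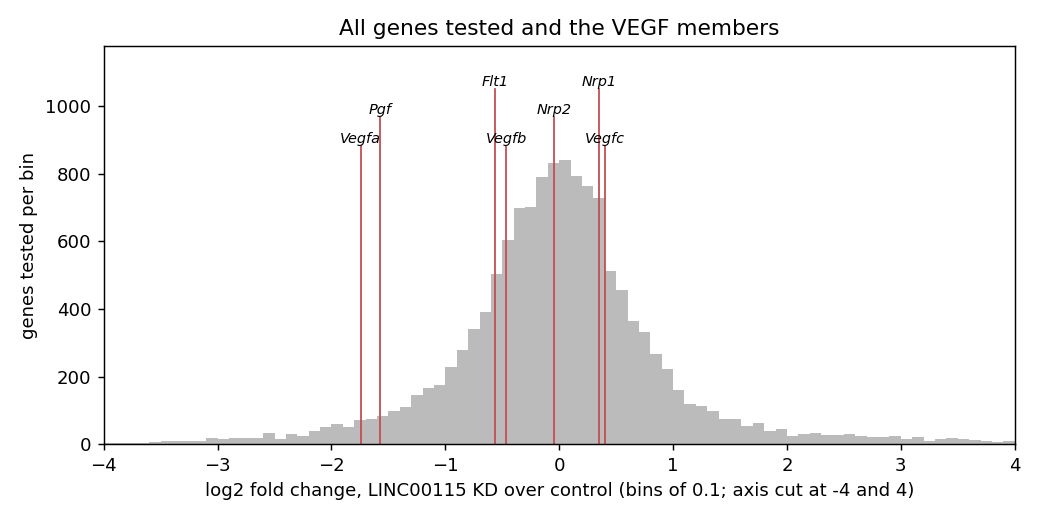
Number of tested genes by log2 fold change of KD over control in bins of 0.1, with red lines at the 7 tested VEGF genes; values beyond −4 and 4 are not shown. Vegfa and Pgf lie in the lower tail, where 9.17% and 10.9% of genes had a larger change in either direction, and the other 5 lie within the bulk of genes.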

How the data were processed

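RNA-seq read counts of 3 LINC00115 KD and 3 control libraries were analysed. Per the labels and the study's methods, the authors trimmed adapters, mapped reads with HISAT2 and deposited whole-number counts per gene without normalization. The methods name hg19, and the submitters' processing notes name hg38, featureCounts and DESeq2. Neither annotation nor strand setting is given in the sources used here. Each column was assigned by its name, the description of its sample, and 0 columns of values were left unused.

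The test was that of edgeR 4.0.16 in R 4.3.3 (filterByExpr with a minimum count of 10 and a minimum total of 15, TMM, quasi-likelihood test, Benjamini-Hochberg adjustment over 13497 genes, group only). A gene was called where the fold change exceeded 2 at an adjusted p-value under 0.05, as in the study. SE is the absolute log2 change over √F. The pipeline was tested on simulated counts. Profiles used log2 of CPM plus 0.5.

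The members and the 14 gene lists were chosen with earlier results of these data known. Named were all members, up to 6 called genes of each list with the largest change, and the 3 genes nearest to each tested member in profile. Other genes were named after their values were seen. Alternatives were other scalings, other low-count filters, DESeq2 1.42.0, each library left out, the replicate number as a block and no fold-change threshold.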

Additional observations from a re-analysis of the deposited data

How the results depend on the processing

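The 2 member genes called lower (Vegfa and Pgf) were called under every alternative that kept the fold-change threshold, and 0 were called higher. Without that threshold, 4 members were lower and 2 higher, and 4960 and 4952 of all genes. With at least 10 counts in every sample, 903 genes were called higher in place of 1381. Nrp2 passed the test with upper quartile scaling (−0.088). No other member changed its direction or its side of an adjusted p-value of 0.05 under the other scalings, filters, DESeq2 or the replicate block.

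Fits that each lacked 1 library gave log2 fold changes between −1.783 and −1.685 for Vegfa, −0.5011 and −0.4382 for Vegfb, 0.3543 and 0.4472 for Vegfc, −1.629 and −1.465 for Pgf, −0.608 and −0.5199 for Flt1, 0.2749 and 0.4548 for Nrp1, and −0.05785 and −0.02528 for Nrp2. They called between 1257 and 1392 genes lower, and between 1405 and 1488 higher. Among all alternatives, 60 counts of called genes within the lists moved by more than 1.5 times, many of them with at least 10 counts in every sample or no fold-change threshold.

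Groups share replicate numbers, but same-numbered libraries did not deviate together (correlations 0.0135, −0.0194 and −0.0202 of deviations from the group means). No pairing by number was thus detected, though these correlations over all genes cannot exclude one that touches few genes. With the replicate number as a block, Vegfa had −1.74, Pgf −1.58 and Nrp2 −0.047 (adjusted p = 0.171, edgeR's quasi-likelihood test).

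Kdr and Flt4 were below the filter on low counts, and the depth limits their comparison to the counting intervals given above.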
